A study of Mus musculus with 2 samples.

Results

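Small nucleolar RNAs and small Cajal body RNAs are short noncoding RNAs that guide chemical modification of other RNAs. The named members of 3 classes were described here in mouse brain cortex: genes whose symbol begins with Snord, Snora or Scarna followed by a digit, as the gene annotation gives it. The rule took 150 of the 55536 gene rows in the deposited gene tables, of which 99 were C/D RNAs (Snord), 42 H/ACA RNAs (Snora) and 9 Cajal body RNAs (Scarna). These rows carried 147 distinct symbols, because Snord80, Snora16a and Snora43 each had a pair of overlapping rows. The annotation typed 142 of the rows as snoRNA, 7 as scaRNA and 1, Snord43, as miRNA. Rows for the U3 RNAs carry other symbols and fell outside the rule, and no Snord115 row was among the members.

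The RNA was total RNA from the left cerebral cortex of 2 female mice, 10 days old, labelled B6CASTF1/J. The labels number the females separately and call them biological replicates 1 and 2; they form 1 group, with no treated or control animals. Both libraries carry the same donor identifier in the labels, and whether it stands for an animal or for the strain was not given in the sources used here. The input was 300 ng of RNA per library, and ERCC spike-ins (synthetic RNAs of known amount) were added under a profile that the labels name for stranded, ribosomal-RNA-reduced libraries. Gene rows held 29867112 expected reads in the library of replicate 1 and 31031340 in that of replicate 2. The cortical neuron markers Slc17a7, Neurod6, Tbr1, Snap25 and Gad1 were all present, at mean levels between 49.2 and 592 TPM. The SD over n = 2 therefore describes the spread between these libraries only, and no p-value was computed.

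C/D RNAs carry the short C and D boxes near their ends, bind the methyltransferase fibrillarin, and guide 2′-O-methylation of ribosomal RNA by base pairing with it. H/ACA RNAs fold into hairpins that end in an ACA box, bind dyskerin, and guide the conversion of uridine to pseudouridine. Cajal body RNAs carry 1 or both of these designs and act in the Cajal body on the small nuclear RNAs of the spliceosome. Most of these RNAs in mammals are cut out of introns of longer host transcripts rather than made from promoters of their own.

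The sequences of 8 members are shown in the order in which the results turn on them, read from the M21 transcripts of assembly mm10, 5′ to 3′ and all from the minus strand. In all but the Snora73 pair, capitals mark the C box (TGATGA) where it lay within the first 20 bases and the last D box (CTGA) that lay within the last 15. Scarna2, of 414 bases, lies at chr3:108554338-108554751 and Scarna10, of 325 bases, at chr6:125186359-125186683. Together they took most of the reads of the whole group, and their first and last 100 bases are shown.
Scarna2, 5′ end: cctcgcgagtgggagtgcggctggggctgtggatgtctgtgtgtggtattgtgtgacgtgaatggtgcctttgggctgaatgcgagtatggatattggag
Scarna2, 3′ end: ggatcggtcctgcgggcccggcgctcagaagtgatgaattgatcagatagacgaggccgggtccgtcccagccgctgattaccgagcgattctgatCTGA
Scarna10, 5′ end: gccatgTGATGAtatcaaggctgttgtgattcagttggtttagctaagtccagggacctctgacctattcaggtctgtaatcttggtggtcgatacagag
Scarna10, 3′ end: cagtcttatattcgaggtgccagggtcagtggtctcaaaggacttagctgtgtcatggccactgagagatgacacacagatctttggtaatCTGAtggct
Snora73b lies at chr4:132352322-132352526 and Snora73a at chr4:132352775-132352979, 248 bases apart. They are copies of U17, an H/ACA RNA that serves cleavage of the ribosomal RNA precursor. Their sequences were identical at 198 of 205 positions (96.59%), and capitals mark the 7 positions that differ. Counted from 1 at the 5′ end, with the base of Snora73a first, these are G3A, G54A, A111G, T164C, G203A, T204A and T205A.
Snora73b: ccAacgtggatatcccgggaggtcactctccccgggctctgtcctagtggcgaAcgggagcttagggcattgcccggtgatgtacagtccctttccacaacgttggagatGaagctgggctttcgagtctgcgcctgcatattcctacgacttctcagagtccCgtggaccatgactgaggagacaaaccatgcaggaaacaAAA
Snora73a: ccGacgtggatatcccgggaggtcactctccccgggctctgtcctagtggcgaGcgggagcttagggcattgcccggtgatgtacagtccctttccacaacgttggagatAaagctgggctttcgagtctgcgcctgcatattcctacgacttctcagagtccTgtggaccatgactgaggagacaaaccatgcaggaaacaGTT
The 3 C/D RNAs with the most reads were Snord17, at chr2:144265979-144266216, Snord15b, at chr7:99479563-99479707, and Snord15a, at chr7:99482785-99482932. Snord15a and Snord15b are copies of U15, which guides methylation of 28S ribosomal RNA; they stood 3077 bases apart and were 65.58% identical in alignment.
Snord17: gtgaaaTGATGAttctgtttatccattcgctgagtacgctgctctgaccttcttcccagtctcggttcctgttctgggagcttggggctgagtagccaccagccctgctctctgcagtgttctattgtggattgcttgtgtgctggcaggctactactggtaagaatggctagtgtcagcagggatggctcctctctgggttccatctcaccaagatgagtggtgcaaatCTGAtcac
Snord15b: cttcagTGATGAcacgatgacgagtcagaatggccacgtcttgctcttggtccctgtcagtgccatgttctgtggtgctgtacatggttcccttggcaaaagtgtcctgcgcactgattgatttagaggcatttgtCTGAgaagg
Snord15a: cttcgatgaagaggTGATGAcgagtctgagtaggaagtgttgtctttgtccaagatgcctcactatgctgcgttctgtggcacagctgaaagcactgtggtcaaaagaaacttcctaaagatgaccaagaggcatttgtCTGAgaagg
Snord116l1, at chr7:59894620-59894713, stands for the brain-enriched Snord116 cluster, whose members were too short to be measured here.
Snord116l1: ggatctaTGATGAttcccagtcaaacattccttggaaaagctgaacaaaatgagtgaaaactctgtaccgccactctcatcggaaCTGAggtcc

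The letters of the boxes followed the class names. The classes are named for these boxes and the members were chosen by symbol, so this match is no independent finding. The other transcripts set beside the members leave out those typed snoRNA or scaRNA. TGATGA lay within the first 20 bases of 70 of 99 C/D RNAs (70.7%), 0 of 42 H/ACA RNAs and 4 of 9 Cajal body RNAs, against 0.471% of 139961 other transcripts. CTGA lay within the last 15 bases of 92 C/D RNAs (92.9%), 3 H/ACA RNAs (7.14%) and 5 Cajal body RNAs, against 6.85% of the other transcripts. Both boxes were present in 68 C/D RNAs (68.7%), no H/ACA RNA, 4 Cajal body RNAs and 0.038% of the other transcripts. The letters ACA stood exactly 3 bases from the 3′ end in no C/D RNA, in 35 H/ACA RNAs (83.3%), in 2 Cajal body RNAs and in 2.26% of the other transcripts. Each motif was read on the RNA's own strand only, the first 20 and the last 15 bases never overlap in these RNAs, the ACA place lies within the last 15, and a match is a description of letters only.

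The length of an RNA bounded whether it could be counted at all. The deposited effective length, the number of places where a read can start and by which TPM divides, equalled the annotated length less 99 bases in all 32326 single-transcript rows of 100 bases or more. The 28571 single-transcript rows under 100 bases had an effective length of 0 and held 0 reads. Both counts also include deposited rows outside the 55536 gene rows. Among the 55536 gene rows, 2398 had an effective length of 0. Of the members, 89 were under 100 bases: 87 of the 99 C/D RNAs, none of the H/ACA RNAs, and Scarna9 and Scarna17 of the Cajal body RNAs. Their value of 0 is therefore no measurement of their level. The other 61, namely 12 C/D, 42 H/ACA and 7 Cajal body RNAs, are called measurable. Annotated lengths ran from 64 to 238 bases in C/D RNAs (median 84), 121 to 205 in H/ACA RNAs (median 132.5) and 70 to 414 in Cajal body RNAs (median 140).

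**Figure D1:**
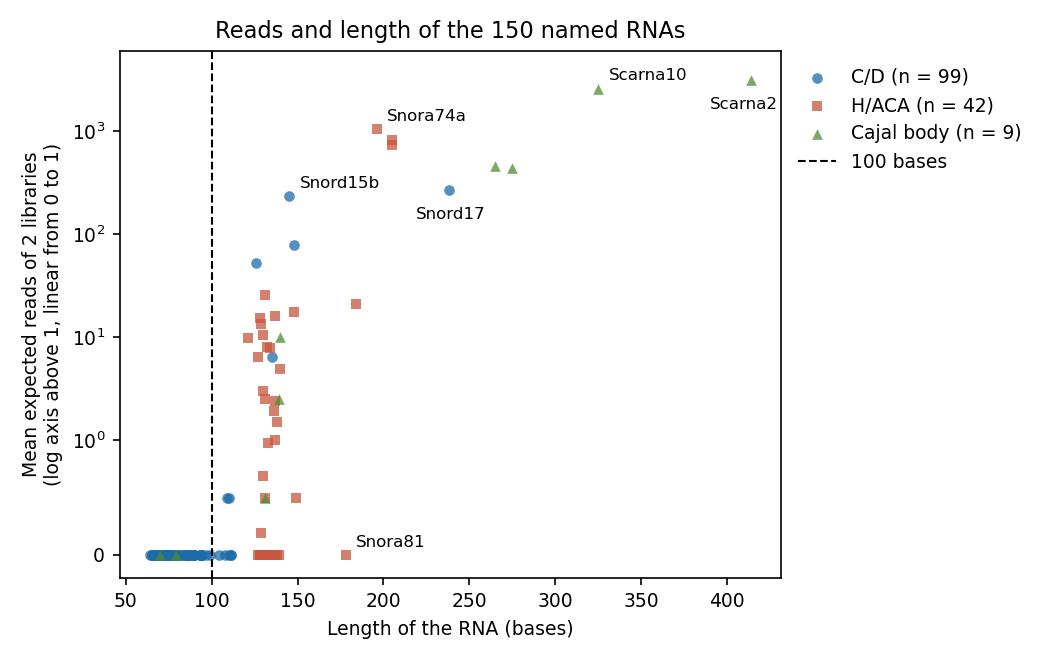
Mean expected reads of the 2 libraries (vertical axis, logarithmic above 1 and linear from 0 to 1) against annotated length in bases, 1 point for each of the 150 RNAs, coloured by class. All 89 RNAs left of the dashed line at 100 bases sit at 0, and 9 of the 10 RNAs of 150 bases or more held 10 reads or more in both libraries, Snora81 being the exception.

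Detection, set at 1 TPM or more in both libraries, was reached by 30 of the 150 RNAs, against 26.9% of all gene rows. By class these were 5 of 99 C/D RNAs (5.05%), 19 of 42 H/ACA RNAs (45.2%) and 6 of 9 Cajal body RNAs (66.7%). Of the measurable RNAs, 41.7% of C/D, 45.2% of H/ACA and 85.7% of Cajal body RNAs were detected, 49.2% in all, against 28.1% of all gene rows with an effective length above 0. The gap between the C/D and H/ACA shares was thus small among measurable RNAs and wide among all members.

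Among RNAs of 120 to 149 bases, the only length range that all 3 classes share below 150 bases, 4 of 4 C/D RNAs, 15 of 37 H/ACA RNAs and 2 of 3 Cajal body RNAs were detected. The 7 C/D RNAs of 100 to 119 bases were not detected. Of all gene rows between 100 and 149 bases, 3.74% were detected, and of those between 150 and 449 bases, 4.89%. The 1409 snoRNA and scaRNA rows under other symbols held 1036 rows of 100 bases or more, of which 76 (7.34%) were detected, against 49.2% of the measurable named RNAs. Genes of a class are not replicates, so these shares are set side by side without a test.

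For a short RNA the 1 TPM limit is a matter of very few reads. A single read was worth 1.62 TPM in replicate 1 and 1.48 TPM in replicate 2 for an RNA of 132 bases such as Snora17, but 0.17 TPM and 0.155 TPM for Scarna2. At 10 expected reads or more in both libraries, 16 members remained, 4 C/D, 8 H/ACA and 4 Cajal body RNAs, against 31.9% of all gene rows and 33.4% of those with an effective length above 0. No read was assigned to 21 of the 61 measurable RNAs, 5 C/D and 16 H/ACA, while each of the 7 measurable Cajal body RNAs had at least 1 read.

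The classes ranked differently by number, by reads and by level. C/D RNAs, the most numerous, summed to 598.94 and 682.63 expected reads in the libraries of replicates 1 and 2, which is 6.32% and 6.43% of the reads of all members. H/ACA RNAs summed to 2462.62 and 3095.51 reads (25.99% and 29.1%). Cajal body RNAs, the fewest, summed to 6413.67 and 6842.99 reads (67.7% and 64.4%). In both libraries Cajal body RNAs held the most reads and C/D RNAs the fewest, but 87 of the 99 C/D RNAs were too short to hold any.

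On the TPM scale, which divides by effective length, the order at the top turned round. Summed TPM was 552 ± 1.9 for C/D, 1545 ± 140 for H/ACA and 1376 ± 19.3 for Cajal body RNAs (SD, n = 2). H/ACA RNAs exceeded Cajal body RNAs by 1445.59 against 1389.66 TPM in replicate 1 and by 1643.51 against 1362.4 TPM in replicate 2, a gap that was smaller in replicate 1 than the SD of the H/ACA sum. Among members that share no 100-base window with transcripts of another gene, the order at the top was the other way, with sums of 194 TPM for C/D, 498 TPM for H/ACA and 790 TPM for Cajal body RNAs. Most of this H/ACA sum was Snora73b, at a mean of 396.67 TPM, whose level is uncertain because it is nearly identical to Snora73a. With all members, C/D RNAs were lowest in both libraries, at 553.33 and 550.65 TPM, from 12 countable genes. The median measurable Cajal body RNA stood at 122.91 and 132.37 TPM, above the median H/ACA RNA at 0.425 and 2.36 TPM and the median C/D RNA at 2.67 and 2.22 TPM. The highest Cajal body RNAs, Scarna10, Scarna2, Scarna6 and Scarna13, are 265 to 414 bases long. Scarna3a, Scarna3b and Scarna8, of 131 to 140 bases, had means of 12.41, 3.11 and 0.765 TPM. The part of length in the class medians was not tested. All members together took 317 and 342 reads in every 1000000 gene reads. In bulk tissue, more cells of a type and more RNA in each cell cannot be told apart for any of these levels.

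**Figure D2:**
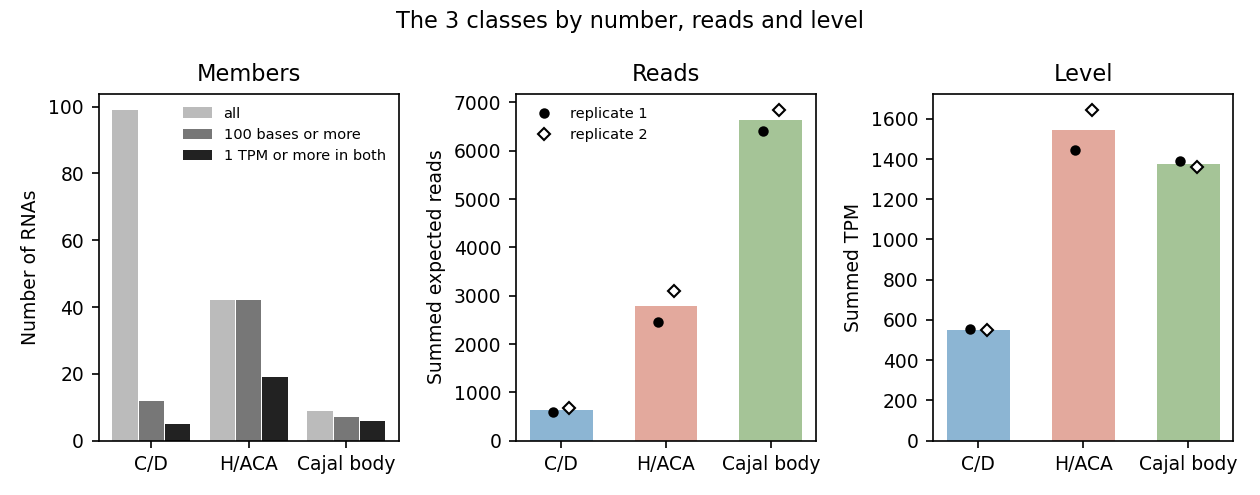
The number of RNAs in each class (left: all, those of 100 bases or more, those at 1 TPM or more in both libraries), their summed expected reads (middle) and their summed TPM (right). Bars in the middle and right panels are means of 2 libraries and points are the libraries. C/D RNAs are most numerous at 99, but 87 of them could hold no read, and the class is lowest in summed reads and TPM.

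A few RNAs held nearly all of the reads. Scarna2 and Scarna10 alone took 58.6% of the reads of all members in replicate 1 and 55.4% in replicate 2. With Snora74a, Snora73b and Snora73a they took 82.9% and 82.8%, and the 10 most read members took 97.7% and 97.5%. Within the classes, Snord17, Snord15b and Snord15a held 91.7% and 89.7% of C/D reads, Snora74a and the Snora73 pair 93.5% and 94.1% of H/ACA reads, and Scarna2 and Scarna10 86.5% and 86.0% of Cajal body reads.

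Among Cajal body RNAs, Scarna10 and Scarna2 stood several-fold above the rest. Scarna10, known as U85, carries both a C/D and an H/ACA part and guides modification of the U5 small nuclear RNA. It held 2516.67 and 2638.99 reads, or 594.78 and 570.30 TPM, in replicates 1 and 2. Scarna2, which guides methylation of the U2 small nuclear RNA, held 3032 and 3245 reads, or 514.12 and 503.12 TPM. Both values of Scarna10 were above both values of Scarna2 on the TPM scale, and both values of Scarna2 were above those of Scarna10 in reads, the longer RNA having the more reads. No annotated gene on the same strand spans Scarna2, so it has no host in this annotation, while Scarna10 lies within Ncapd2, a subunit of condensin, at 14.6 ± 2.23 TPM. Of the 100-base windows of Scarna10, 81.4% also occur in transcripts of Ncapd2 or Gm28967, so its level is uncertain; no window of Scarna2 occurs in another gene's transcripts.

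Scarna6 and Scarna13 formed a middle level. Scarna6, in an intron of the autophagy gene Atg16l1, stood at 144.79 and 137.10 TPM from 450 and 466 reads. Scarna13, known as U93 and built of H/ACA parts only, stood at 122.91 and 132.37 TPM from 405 and 477 reads, in an intron of the noncoding RNA Snhg10. Both TPM values of Scarna6 lay above both of Scarna13, but their deposited intervals overlapped. In reads, replicate 2's value of Scarna13 was above both values of Scarna6. Scarna10 and Scarna6 carried both boxes within the searched ends, Scarna2 the D box only, and Scarna13 the ACA letters only. No window of Scarna6 or Scarna13 is shared with another gene.

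The other Cajal body RNAs rested on few reads. Scarna3a had 11.72 and 13.10 TPM from 9 and 11 reads, and Scarna3b, with 85.71% of aligned positions identical to it, 1.34 and 4.88 TPM from 1 and 4 reads. Of the windows of Scarna3b, 62.5% also occur in transcripts of CT030161.1, so its level is uncertain. Scarna8 had no read in replicate 1, which allows up to 5.01 TPM, and 1 read in replicate 2, or 1.53 TPM. The annotated Scarna9 of 70 bases and Scarna17 of 79 bases could hold no read. Such limits of 3 reads cover counting error only.

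H/ACA RNAs were led by Snora74a and the 2 copies of U17. Snora74a, known as U19, stood at 502.77 and 590.75 TPM from 913.06 and 1173.28 reads, on chromosome 18 inside the noncoding transcript AC121821.1. Snora73b stood at 377.01 and 416.33 TPM and Snora73a at 322.65 and 385.29 TPM, both within Snhg3, the U17 host gene, which itself stood at 17.71 and 16.05 TPM. Within each library Snora74a was highest, then Snora73b, then Snora73a, but replicate 2's value of Snora73a lay above replicate 1's value of Snora73b, so these neighbours overlapped. The deposited intervals of the 2 libraries did not overlap for Snora74a and Snora73a, the only such members among the 30 detected, against 12.7% of all gene rows at 1 TPM or more in both libraries. Replicate 2 was higher for both. The U17 copies also lie antisense to an exon of Gm17300, and whether the counting used strand was not given in the sources used here. In addition, 56.6% of the windows of Snora73a and all windows of Snora74a also occur in their hosts' transcripts, so those levels are uncertain. No window of Snora73b does, but the search was for exact matches and Snora73b is 96.59% identical to Snora73a. Its expected reads, 748.2 and 903.6, were not whole numbers, so its level is uncertain too.

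Below this trio the H/ACA levels fell by about an order of magnitude. Snora68 stood at 51.03 and 31.78 TPM from 30.57 and 20.82 reads, and its level is uncertain because all of its windows are shared. Snora78, in an intron of Snhg9, had 23.94 and 30.31 TPM from 13 and 18 reads. Snora26, in Dancr, had 25.24 and 20.73 TPM from 10.39 and 9.34 reads. Snora44, in Snhg12, had 16.52 and 28.26 TPM from 9.28 and 17.36 reads, and Snora21, in an intron of Rpl23, 18.27 and 24.42 TPM from 13 and 19 reads. All windows of Snora26 and of Snora44 also occur in transcripts of their hosts, so these levels are uncertain too, while Snora78 and Snora21 share none. The ranges of Snora78, Snora26, Snora44 and Snora21 over the 2 libraries overlapped, so no order among them can be given. The remaining 11 detected H/ACA RNAs had mean levels between 1.49 and 18.1 TPM.

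Most H/ACA RNAs with no read were of 127 to 139 bases, where a count of 0 allows up to between 3.66 and 5.72 TPM when no sequence is shared. The exception was Snora81, of 178 bases, within the translation factor gene Eif4a2 at 379.67 and 330.78 TPM. It held 0 reads in both libraries, and all of its windows also occur in transcripts of Eif4a2 or Gm49346. A count of 0 allows up to 2.03 TPM in replicate 1 and 1.85 TPM in replicate 2 if no read was assigned elsewhere, and the upper bounds deposited with its values were wider, at 3.89 and 3.59 TPM. The 127-base row of Snora43 held 9 and 4 reads, 17.17 and 6.98 TPM, while the overlapping 139-base row of the same symbol was at 0. Snora7a, in a UTR of the ribosomal protein gene Rpl32 and with every window shared with it, had 0.85 and 10.85 TPM.

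**Figure D3:**
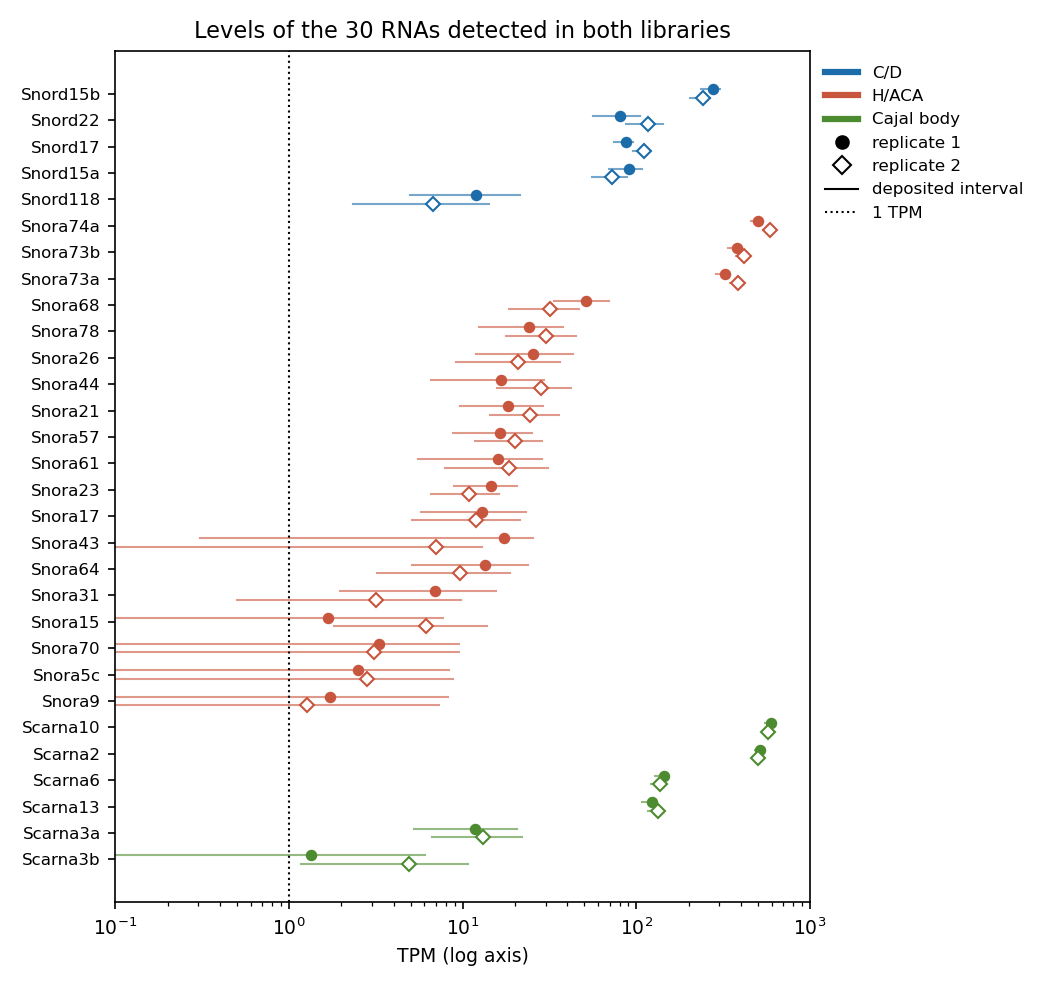
TPM (logarithmic horizontal axis) of the 30 RNAs at 1 TPM or more in both libraries, grouped by class; filled circles are replicate 1, open diamonds replicate 2, and lines the interval deposited with each value. Each class has a small set near or above 100 TPM, and the H/ACA class has a long run of members, from Snora68 at 51.03 and 31.78 TPM down, whose intervals are wide.

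The 12 measurable C/D RNAs were led by Snord15b, at 277.66 and 240.17 TPM from 239.12 and 226.21 reads. Its partner Snord15a, in an intron of the same ribosomal protein gene, Rps3, stood at 90.47 and 72.76 TPM from 83 and 73 reads. Both values of Snord15b lay above both values of Snord15a, but the windows of Snord15b all occur in an Rps3 transcript while none of Snord15a does, and Rps3 itself stood at 131.23 and 126.16 TPM. How far Rps3 reads enter the level of Snord15b was not tested.

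Snord17, at 238 bases the longest C/D RNA in the group and in an intron of the sorting nexin gene Snx5, stood at 87.23 and 109.98 TPM from 227 and 313 reads. Snord22, known as U22 and needed for maturation of 18S ribosomal RNA in Xenopus, stood at 80.76 and 116.52 TPM from 40.82 and 64.42 reads, inside its host Snhg1 at 13.6 and 10.1 TPM. All windows of Snord22 occur in Snhg1 transcripts and none of Snord17 occurs elsewhere. The ranges of Snord17, Snord22 and Snord15a overlapped, so they cannot be put in order.

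Other C/D RNAs known for a part in maturation of ribosomal RNA were thinly covered or not measurable. Snord118, the U8 RNA, whose human gene is mutated in a leukoencephalopathy with calcifications and cysts, had 11.87 and 6.78 TPM from 8 and 5 reads. Snord13, the U13 RNA, had no read, but with an effective length of 5 bases that allows up to 32.05 and 29.3 TPM. All 4 U14 rows, Snord14a, Snord14c, Snord14d and Snord14e, were between 86 and 90 bases and could not be measured, although Hspa8, host of 3 of them, stood at 1100.52 and 1088.51 TPM. Snord23 and Snord8 had 1 read each in a single library, and Snord43, Snord67, Snord89 and Snord90 had none.

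Snord116 is a repeated C/D RNA of the imprinted Prader-Willi region, expressed mainly in brain. Its 17 rows, Snord116l1 to Snord116l17, were all 94 bases long, with 4 distinct sequences of which the least alike were 94.68% identical. They lie between positions 59861731 and 59904848 of chromosome 7, on the minus strand, in introns of Snhg14. Snhg14 stood at 597.88 TPM in replicate 1 and 445.37 TPM in replicate 2, so the long host RNA was abundant in both libraries while the small RNAs within it could not be counted.

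Host genes were found for 141 of the 150 RNAs, in 90 genes, 67 of them protein coding. A host is the gene whose span holds the RNA on the same strand, and for 11 RNAs with several such genes the one with the highest TPM was taken. By position, 76 RNAs lay in introns only, 59 overlapped an exon of some host transcript and 6 lay in a UTR. Of the 87 RNAs under 100 bases with a host, 86 sat in hosts at a mean of 1 TPM or more. Of all gene rows, 26.9% reached 1 TPM or more in both libraries, which is a stricter limit than a mean of 1 TPM. Hosts at 100 TPM or more held 44 of the 87, a limit for which no share of all gene rows was taken. These are counts of RNAs and not of hosts: 17 of the 44 are Snord116 rows in Snhg14 alone.

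Levels of the RNAs stood on both sides of their hosts' levels. Of the 25 detected RNAs with a host, 11 were above it in TPM in both libraries and 13 below it in both. Snora74a, Scarna10, both Snora73 copies, Scarna13 and Snord22 stood far above hosts at means between 6.68 and 16.9 TPM. On the other side, Snora31 had 6.89 and 3.15 TPM from 4 and 2 reads inside Tpt1, which averaged 617 ± 42.0 TPM (SD, n = 2). Of measurable RNAs with a host at 100 TPM or more, 7 of 17 were detected, and of those with a host below 100 TPM, 18 of 37. Across the 54 measurable RNAs with a host, which share 48 hosts, libraries and depth, Spearman's rho of mean levels was -0.22, and it was -0.21 in replicate 1 and -0.24 in replicate 2. Over the 27 of these RNAs that share no window it was -0.10. Counts in most of these RNAs were sparse and rho is a description only.

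**Figure D4:**
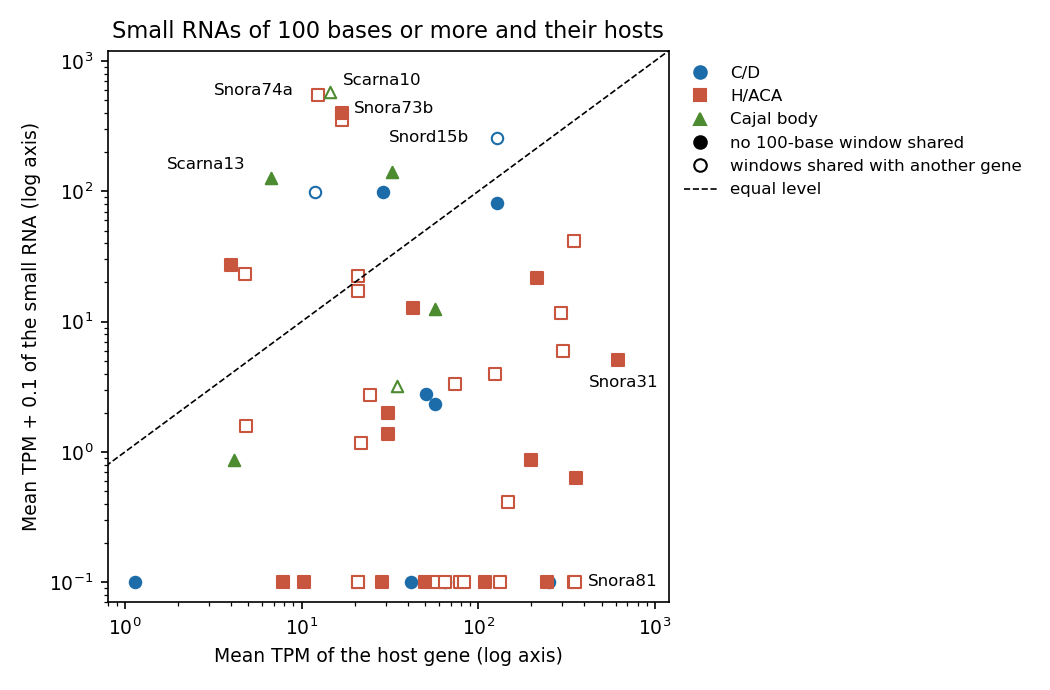
Mean TPM of each of the 54 measurable RNAs with a host (vertical, logarithmic, 0.1 added so that zeros show at the bottom) against the mean TPM of its host gene (horizontal, logarithmic). Open symbols share at least 1 window of 100 bases with another gene's transcripts and the dashed line marks equal level; Snora74a and Scarna10 lie far above the line and Snora31 far below it.

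Sharing of sequence with longer transcripts was common. Of the 61 measurable RNAs, 32 shared no 100-base window with another gene's transcripts, 6 shared some and 23 shared all. Of the 30 detected these numbers were 14, 5 and 11, and of the 16 with 10 reads or more in both libraries 10, 2 and 4. Of the 21 with no read they were 11, 1 and 9. How the authors' counting divided such reads was not given in the sources used here. A level with shared windows is therefore uncertain in either direction.

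Values of the 2 libraries were compared where reads were many. With library scaling by TMM, the 13 members at a mean of 20 expected reads or more, 4 C/D, 5 H/ACA and 4 Cajal body RNAs, included 0 that were 2-fold apart or more, against 1.46% of all such gene rows. No test was made, since 1 group of 2 libraries gives none. The largest ratios were 1.53-fold for Snord22, with replicate 2 higher, 1.49-fold for Snora68, with replicate 1 higher, and 1.36-fold for Snord17, with replicate 2 higher. The 4 Cajal body RNAs were between 1.02-fold and 1.16-fold apart. The median absolute log2 ratio was 0.25 over the 13 members and 0.11 over all gene rows at that depth, which include far deeper genes. At a mean of 100 expected reads or more it was 0.21 over 9 members and 0.09 over all gene rows. The part of depth in this gap was not tested. All 6 markers of other cells and tissues were detected, with a summed level of 463.38 TPM in replicate 1 and 586.22 TPM in replicate 2. Mbp of oligodendrocytes stood at 90.02 and 180.83 TPM, Ttr of choroid plexus at 3.98 and 9.7, and Hbb-bs of blood at 240.39 and 282.1, all higher in replicate 2. Gfap of astrocytes stood at 57.69 and 50.98 TPM, Ppp1r1b of striatum at 29.36 and 20.63, Cldn5 of endothelium at 41.94 and 41.98, and the neuronal Gad1 at 79.72 and 57.83. The part of these differences in the ratios was not tested.

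The genes for proteins that these RNAs work with were described by their RNA, and protein was not measured. Counts of detected genes here and in the next paragraph stand beside 26.9% of all gene rows. Of 6 listed C/D core symbols 5 were found, Nhp2l1 being an older name of Snu13, and all 5 were detected: the methyltransferase Fbl at 36.73 and 35.44 TPM, its partners Nop56 at 85.84 and 75.02 and Nop58 at 36.72 and 34.84, the kink-turn binder Snu13 at 54.01 and 50.09, and the U3 protein Rrp9 at 18.4 and 16.72 TPM. All 4 H/ACA core genes were detected too, with the pseudouridine synthase Dkc1 lowest at 12.38 and 9.99 TPM, Gar1 at 20.98 and 19.64, Nhp2 at 25.2 and 26.27, and Nop10 highest at 36.86 and 36.8 TPM. Median levels were 36.73 and 35.44 TPM for the C/D core, above 23.09 and 22.96 TPM for the H/ACA core.

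All 8 Cajal body factors were detected, with a median of 9.21 and 9.49 TPM, below both core lists in both libraries. Coil, the scaffold of the Cajal body, stood at 10.5 and 10.36 TPM. Wrap53, which carries small Cajal body RNAs to it, was the lowest of the 8 at 3.74 and 3.55 TPM. The survival motor neuron gene Smn1 stood at 16.36 and 17.49 TPM. The 11 assembly factors, among them the ATPases Ruvbl1 and Ruvbl2 of box C/D assembly and the H/ACA factors Naf1 and Shq1, were all detected, with a median of 15.44 and 14.7 TPM. Every listed protein gene was thus measurable at mean levels between 3.65 and 80.4 TPM, whereas the measurable RNAs had means between 0 and 583 TPM.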

How the data were processed

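Total RNA-seq of left cerebral cortex was deposited for 2 libraries of 1 group. Expected counts per gene were made by the authors from transcriptome alignments to mm10 and its M21 annotation, as the README files deposited with them say. TPM in the same tables was scaled by the authors over all rows, spike-ins included, per the file headers. The interval bounds deposited with each TPM are a signal on its scale, whose level was not given in the sources used here; they lie around the authors' posterior mean and need not enclose the TPM. The aligner and counter, their versions and the read length were not given in the sources used here. Reads of both parental strains were counted against mm10, and no allele was separated.

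Symbols were read from the deposited transcript names, whose values were not used; 86 gene rows had no symbol there. Host genes, positions and sequences came from GENCODE M21. The members, lists and rules were chosen with earlier results of these data known. Detection is 1 TPM or more in both libraries. A count of 0 allows up to 3 reads (95% confidence, counting error only). Genes were named by a rule: per class the 8 highest in mean TPM, members at least 2-fold apart at 20 reads or more on average, the U8, U13, U14 and U17 genes, Snord116 rows and all Scarna rows, with criteria for members at 1 TPM in a single library with 20 reads or more and for hosts with 3 detected members or more that no member met. Snora81, Snora43, Snora7a, Snora31, Snora17, Snora16a, Snord80 and the C/D RNAs with 0 or 1 read outside the rule were chosen after their values were seen.

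Expected counts were rounded for TMM scaling in edgeR 4.0.16 (limma 3.58.1, R 4.3.3). DESeq2 1.42.0 gave size factors for an alternative. These came out at 1 for both libraries, so this alternative in effect left the counts unscaled. The ratio step was tested on simulated data. Tables, sequences and figures were made with pandas 2.3.3, numpy 2.4.6, Biopython 1.88, scipy 1.17.1 and matplotlib 3.10.9 in Python 3.11.15. Alternatives were another detection limit, another unit, the posterior mean, another scaling, other filters and each library alone. No p-value was computed, and the design holds 1 group. Some results on genes outside the named RNAs are not reported here.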

Additional observations from a re-analysis of the deposited data

How the results depend on the processing

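Of 74 alternatives over 12 results, 51 stayed within the tolerance and 23 moved beyond it. A change of sign was looked for in rho only, which stayed negative in each of its alternatives. The order of the H/ACA and Cajal body sums was not part of this count, and it changed in cases given below. The tolerance was a factor of 1.5 for counts and 1 SD between the libraries for levels and rho. It was thus narrow for the C/D sum (SD 1.9) and wide for the H/ACA median (SD 1.37). For medians and sums, leaving out a library could not pass it, since each library lies within 1 SD of their mean. Leaving out the Snord116 rows, all at 0, could not change a median or a sum either. These alternatives therefore say nothing on how stable the levels are. No paired analysis was possible because there is 1 group. Requiring 10 expected reads in place of 1 TPM gave 16 detected members in place of 30, with 8 in place of 19 H/ACA RNAs, and medians over the members kept of 101 TPM for C/D, 34.3 for H/ACA and 325 for Cajal body RNAs, in place of 0, 1.39 and 12.4; the C/D sum was 538 TPM in place of 552. RPM, a change of unit, gave sums of 21.03, 91.1 and 218 for C/D, H/ACA and Cajal body RNAs, with a Cajal body median of 0.328. In this unit the Cajal body sum exceeded the H/ACA sum. Posterior mean TPM gave sums of 576 for C/D and 1332 for Cajal body RNAs and an H/ACA median of 3.39; the cause was not tested. Without a filter on low counts, 12 members in place of 0 were 2-fold apart, against 11.3% of all gene rows.

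The alternatives on length and on shared windows were chosen after seeing the data. Among members of 100 bases or more, the medians were 2.45 TPM for C/D and 128 for Cajal body RNAs. Among members that share no window, which are fewer, 14 were detected, 3 C/D and 7 H/ACA; sums were 194, 498 and 790 TPM for C/D, H/ACA and Cajal body RNAs, so the Cajal body sum was then the highest, and rho with the host was -0.10 over 27 RNAs. Leaving out each library in turn gave 32 to 37 detected members, C/D 6 in each case, H/ACA 20 to 24, rho from -0.24 to -0.21, medians of 0.425 to 2.36 TPM for H/ACA and 11.7 to 13.1 TPM for Cajal body RNAs, and sums of 551 to 553 TPM for C/D, 1446 to 1644 for H/ACA and 1362 to 1390 for Cajal body RNAs. Deposited TPM moves the median log2 ratio of replicate 2 over replicate 1 of all genes to -0.11, against 0.00 under TMM, and Scarna2, Scarna10 and Scarna6, higher in replicate 2 under TMM, are then higher in replicate 1.

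RNAs under 100 bases are limited by length at any depth. Above that, very few reads decide detection of the short RNAs: at 132 bases 1 read passes the detection limit. Why reads were few for many of them was not tested.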
